A study of Sus scrofa with 12 samples.

Results

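The HOX genes of the pig ovary were taken as every row of the deposited gene table whose symbol was HOX, a cluster letter from A to D and a number, which gave 36 genes of the 29884 in the table. There were 11 members of the HOXA cluster, 8 of HOXB, 9 of HOXC and 8 of HOXD. HOXB4, HOXB9 and HOXD4 were not analysed here. The ovaries came from commercial sows (Sus scrofa) of small litter size (SLS, 8.48 ± 0.53 piglets per litter as the labels give it) or large litter size (LLS, 16.19 ± 0.43 piglets per litter). Left ovaries were taken 4 days after the 4th delivery at slaughter, with 3 sows in each group, and no treatment or genotype was given for the sows. The SLS ovaries were named ZD2, ZD3 and ZD12 and the LLS ovaries ZD5, ZD7 and ZD8, and each gave 1 total RNA library and 1 small RNA library. The breed and the stage of the corpora lutea were not given in the sources used here.

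HOX genes encode transcription factors with a DNA-binding homeodomain, and they give cells of the embryo their position along the head-to-tail axis. They lie in clusters that arose by duplication, so that genes with the same number in different clusters (paralogs) resemble each other. Low numbers act towards the head and high numbers towards the tail, and in the female tract HOXA9, HOXA10, HOXA11 and HOXA13 are known for marking the oviduct, uterus, cervix and vagina in order.

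On Sscrofa11.1, the HOXA members lay at chr18:45373340-45480306 on the plus strand and the HOXB members at chr12:24784953-24950661 on the minus strand. The HOXC members lay at chr5:19151096-19268267 and the HOXD members at chr15:81893997-81990026, both on the plus strand. The spans were 107.0, 165.7, 117.2 and 96.0 kb for HOXA, HOXB, HOXC and HOXD.

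The homeobox is the stretch of 180 nt that encodes the homeodomain, and it is shown for 3 of the 5 members with the highest mean levels to let the sequence likeness of the expressed genes be seen. The sequences were read from the coding exons of the RefSeq annotation of Sscrofa11.1, 5′ to 3′ on the coding strand. Capitals mark each base that is unlike the base of HOXD8 at the same place, so HOXD8 has none.
HOXD8: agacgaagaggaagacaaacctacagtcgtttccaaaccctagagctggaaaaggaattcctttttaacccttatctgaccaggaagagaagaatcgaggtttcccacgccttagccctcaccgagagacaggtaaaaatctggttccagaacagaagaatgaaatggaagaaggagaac
HOXD9: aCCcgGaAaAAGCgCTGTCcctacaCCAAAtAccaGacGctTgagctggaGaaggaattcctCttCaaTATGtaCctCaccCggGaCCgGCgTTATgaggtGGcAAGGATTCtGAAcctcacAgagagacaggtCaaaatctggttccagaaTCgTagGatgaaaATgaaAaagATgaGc
HOXC6: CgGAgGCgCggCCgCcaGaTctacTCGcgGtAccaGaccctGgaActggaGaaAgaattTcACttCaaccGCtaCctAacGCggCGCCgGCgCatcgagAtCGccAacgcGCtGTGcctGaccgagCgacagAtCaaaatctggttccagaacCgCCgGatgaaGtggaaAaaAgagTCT

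HOXC6, from another cluster, was identical to HOXD8 at 119 of 180 bases (66.1%). HOXD9, its neighbour in the same cluster, was identical to it at 114 of 180 bases (63.3%). Over the 630 pairs of the 36 homeoboxes, the median identity was 80.0% for the 34 pairs of paralogs and 61.1% for the other pairs. Between whole transcripts of the 5 most abundant members, no exact shared run was longer than 20 nt. HOXA5 and HOXA6 shared an annotated stretch of 257 nt and HOXD9 and HOXD11 one of 86 nt. HOXA3 exons also covered 81 nt of HOXA6 and 59 nt of HOXA4. Reads in any of these places could have been counted for either gene.

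The clusters also encode miRNAs, whose mature sequences are shown because their levels are set beside those of the HOX genes later. They are as deposited, in DNA letters, 5′ to 3′, with the seed (bases 2 to 8 from the 5′ end, which pair with a target) in capitals.
ssc-miR-10a-5p: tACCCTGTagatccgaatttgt
ssc-miR-10b: tACCCTGTagaaccgaatttgt
ssc-miR-196a: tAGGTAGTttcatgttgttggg
ssc-miR-196b-5p: tAGGTAGTttcctgttgttggg
ssc-miR-615: tCCGAGCCtgggtctccctct

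The 2 members of the miR-10 family had the same seed and differed at 1 base (T12A from miR-10a-5p to miR-10b, counted from the 5′ end). The 2 members of the miR-196 family shared another seed and also differed at 1 base (A12C from miR-196a to miR-196b-5p). Exact matches to the genome placed miR-10b at chr15:81951653-81951674 between HOXD8 and HOXD3, and miR-10a-5p at chr12:24833694-24833715 between HOXB3 and HOXB5. miR-196b-5p matched chr18:45404329-45404350, between HOXA10 and HOXA9. miR-196a matched at chr5:19204463-19204484 between HOXC10 and HOXC9 and at chr12:24886364-24886385 between HOXB8 and HOXB13, so its reads could have come from either place. miR-615 lay inside HOXC5 at chr5:19246820-19246840.

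The total RNA libraries held 32272803 to 60903268 reads on genes and the small RNA libraries 3537619 to 9854086 reads. The label of ovary was checked against marker genes. Of 9 oocyte markers 6 were above 0 in every ovary, among them the growth factor GDF9 (5.41 to 40.6 FPKM), while ZP2 and DAZL were at 0 in 2 ovaries each and FIGLA in 3. Of 7 granulosa cell markers 6 were above 0 in every ovary, among them the factor FOXL2 (6.11 to 37.8 FPKM), while CYP19A1, which makes estrogen, was at 0 in 5 ovaries and at 0.0137 FPKM in ZD5. Of the 5 listed markers of oviduct and uterus epithelium, FOXA2 was at 0 in all 6 ovaries, FOXJ1 at 0.108 FPKM or less and OVGP1 at 1.49 FPKM or less. The general epithelial markers of that list were higher, with CDH1 at 0.816 to 6.10 FPKM and EPCAM at 0.312 to 27.8 FPKM, highest in ZD5. FPKM takes transcript length and library size into account. The length behind the deposited values was that of the longest annotated transcript, as 6650 nt for HOXA10, which had 14 transcripts. A gene expressed from shorter transcripts would be understated, so levels of different genes were compared within this limit.

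Ovary ZD8 stood apart from the other 5 before any HOX gene was considered. Its summed level of 7 luteal markers was 124 FPKM against 9167 to 12190 in the others, and 6 of the 7 were lowest there. STAR, which brings cholesterol into the mitochondria for steroid synthesis, was at 26.4 FPKM in ZD8 and at 2542 to 5418 FPKM elsewhere. The 4 theca markers summed to 447 FPKM in ZD8 against 14.1 to 85.7, with 3 of them highest in ZD8. INSL3 (298 FPKM) and CYP17A1 (117 FPKM) made up most of that sum, while HSD17B2 was at 0.0531 FPKM in ZD8 and at 1.41 and 1.11 FPKM in ZD5 and ZD7. The 9 oocyte markers summed to 129 FPKM against 6.54 to 23.3, with all 9 highest in ZD8. The 8 stroma markers summed to 3505 FPKM against 3834 to 9636, with 4 of them highest and 3 lowest in ZD8. No marker of these 4 lists was at 0 in all ovaries. ZD8 also had the fewest reads on genes. Results are therefore given with and without ZD8, and the part of these differences in the HOX levels was not tested.

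Of the 36 HOX genes, 30 had at least 1 read in at least 1 ovary and 20 had reads in all 6. HOXA2, HOXB1, HOXB13, HOXC12, HOXC13 and HOXD12 were at 0 in all 6 ovaries. Levels were low for most members, and only HOXC5, HOXC6, HOXC8, HOXD8 and HOXD9 had a mean of at least 1 FPKM over the 6 ovaries. In a bulk sample, fewer cells of a type and less RNA per cell cannot be told apart.

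**Figure D1:**
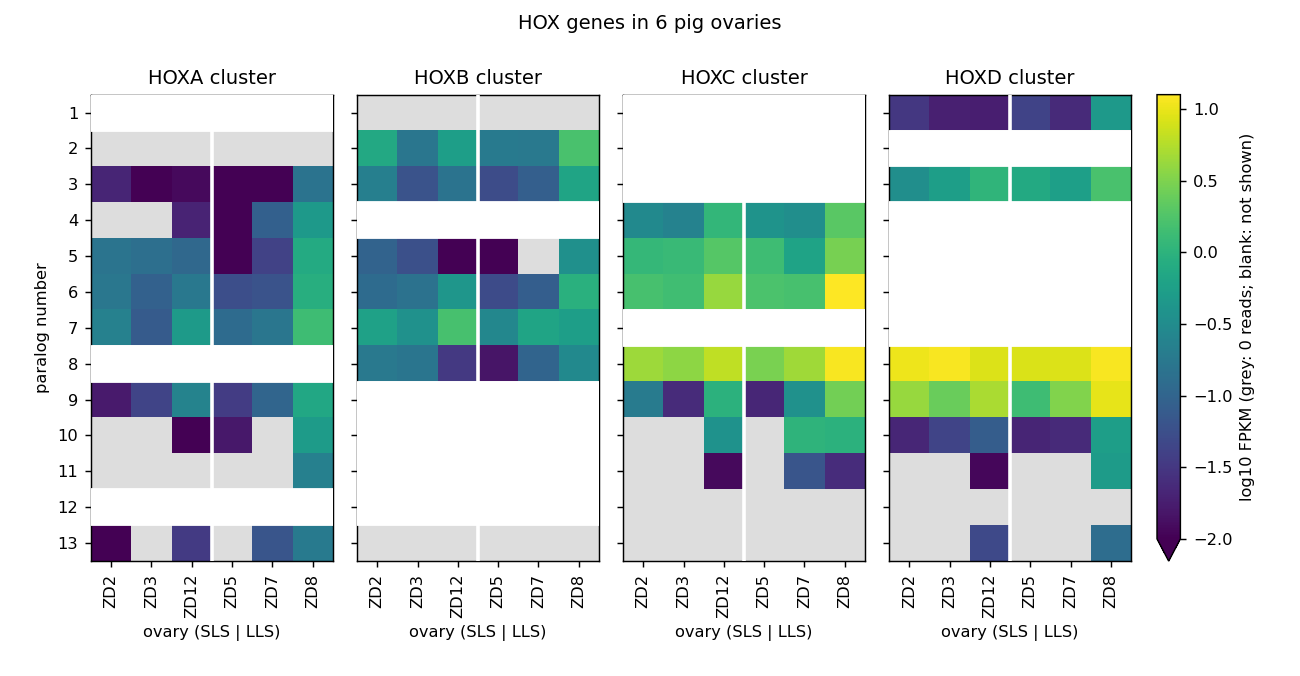
Level of each HOX gene in each ovary, with 1 panel per cluster, paralog numbers 1 to 13 from top to bottom, ovaries from left to right (SLS before the white line, LLS after it) and colour for log10 FPKM. Grey cells had 0 reads, blank rows are paralog numbers that are not shown, and the darkest colour also holds values under 0.01 FPKM; the bright band lies at HOXC5 to HOXC8 and at HOXD8 and HOXD9.

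HOXD8 was the most abundant member, with 36.8% of the summed HOX FPKM as a mean over the ovaries. Its levels were 10.5, 11.8 and 8.58 FPKM in ZD2, ZD3 and ZD12, and 8.39, 8.58 and 11.8 FPKM in ZD5, ZD7 and ZD8. The highest ovary was 1.41 times the lowest, and ZD8 and ZD3 were almost level at the top (11.79 and 11.78 FPKM). On the log2(FPKM + 1) scale its standard deviation over the 6 ovaries was 0.213, and 10.7% of the 12260 tested genes had a smaller one. Without ZD8 it was 0.2, with 21.9% of tested genes below it. HOXD8 was thus the steadiest of the 5 members by this measure.

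HOXC8, its paralog in the HOXC cluster, came next with 17.8% of the HOX FPKM. It was at 4.38, 3.73 and 6.39 FPKM in the SLS ovaries and at 2.99, 4.59 and 11.7 FPKM in ZD5, ZD7 and ZD8. Together with HOXB8, the genes of paralog number 8 held 55.0% of the HOX FPKM, and between 35.3% in ZD8 and 68.5% in ZD3.

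HOXD9 was at 4.21, 2.48 and 5.13 FPKM in the SLS ovaries and at 1.38, 3.27 and 9.79 FPKM in the LLS ovaries. The group ranges overlapped, since the lowest and the highest ovary were both LLS. HOXC6 was at 1.59, 1.43 and 4.21 FPKM in the SLS ovaries and at 1.65, 1.56 and 12.4 FPKM in the LLS ovaries, so that 4 ovaries lay close together while ZD12 and ZD8 stood above them. In ZD8, HOXC6 was the most abundant HOX gene. HOXC5 was at 1.17, 1.27 and 1.89 FPKM in the SLS ovaries and at 1.39, 0.626 and 2.91 FPKM in the LLS ovaries, with ZD7 lowest.

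**Figure D2:**
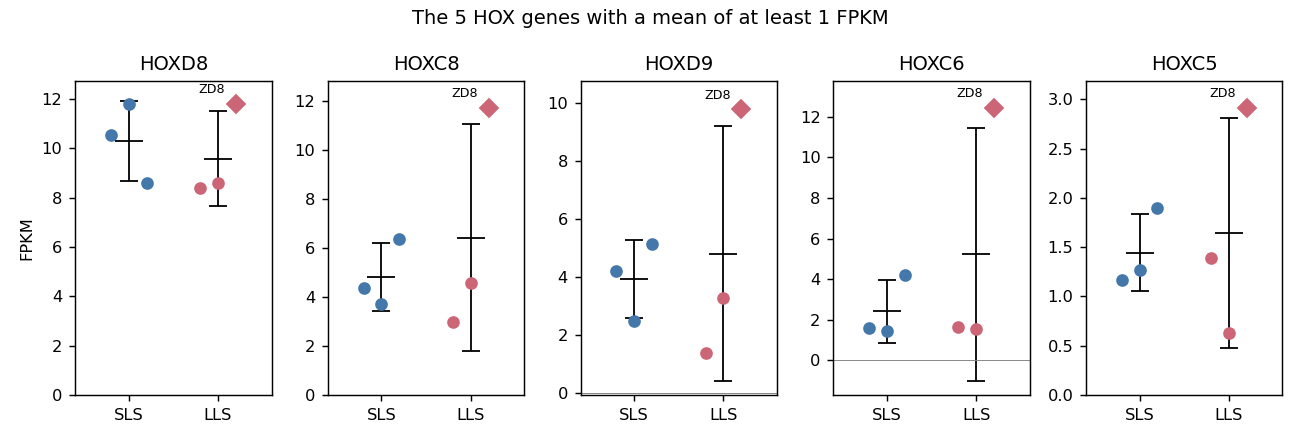
FPKM of the 5 HOX genes with a mean of at least 1 FPKM in SLS (blue) and LLS (red) ovaries, 1 point per ovary, with ZD8 as a diamond and the mean and SD (n = 3) as bars on a scale of its own for each gene. HOXD8 lies between 8.39 and 11.8 FPKM in all 6 ovaries, while ZD8 is far above the other LLS ovaries for HOXC6, at 12.4 FPKM.

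By cluster, HOXD held 53.3% of the HOX FPKM as a mean over the ovaries, HOXC 37.7%, HOXB 5.79% and HOXA 3.20%. The HOXD sum was 15.1, 14.9 and 14.9 FPKM in the SLS ovaries and 10.6, 12.5 and 24.9 FPKM in the LLS ovaries. The HOXC sum was 7.63, 6.69 and 15.01 FPKM in the SLS ovaries and 6.45, 8.59 and 32.9 FPKM in the LLS ovaries. ZD12 and ZD8 were thus the ovaries with the most HOXC. The HOXB sum ranged from 0.592 FPKM in ZD5 to 4.42 FPKM in ZD8, and the HOXA sum from 0.286 FPKM in ZD5 to 5.28 FPKM in ZD8. ZD5 was the lowest ovary and ZD8 the highest for all 4 clusters. HOXD held the largest share in 4 of the 6 ovaries, and HOXC did in ZD12 (44.3% against 44.1%) and ZD8 (48.8% against 36.9%). All shares by cluster and by paralog number leave out HOXB4, HOXB9 and HOXD4, and the close order in ZD12 may depend on that.

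**Figure D3:**
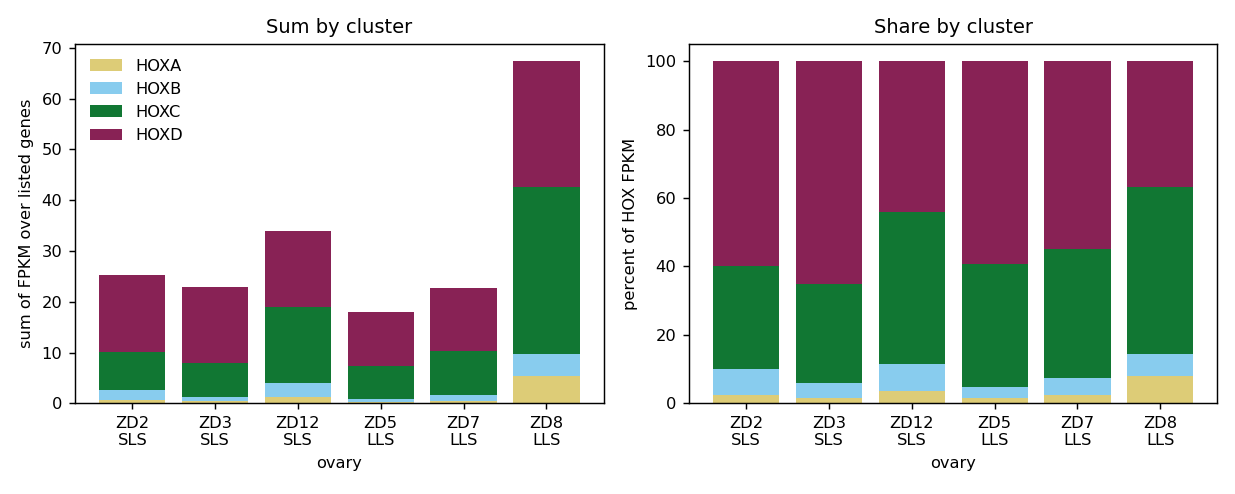
Left, sum of FPKM over the listed HOX genes of each cluster in each ovary, stacked; right, the same as percent of the summed HOX FPKM. The whole bar is tallest in ZD8 (67.4 FPKM) and lowest in ZD5 (17.9 FPKM), and the HOXC share is largest in ZD8 (48.8%).

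Along each cluster the levels were uneven. In HOXC, mean levels were 0 for HOXC13 and HOXC12, 0.0172 FPKM for HOXC11 and 0.398 FPKM for HOXC10. They were 0.726 FPKM for HOXC9, 5.63 for HOXC8, 3.82 for HOXC6, 1.54 for HOXC5 and 0.741 for HOXC4. Without ZD8 these 5 means were 0.32, 4.41, 2.09, 1.27 and 0.482 FPKM. The cluster therefore peaked at its middle genes. In HOXD the high genes were next to each other, with HOXD8 at 9.95 and HOXD9 at 4.38 FPKM, while HOXD10 (0.123 FPKM), annotated within the span of HOXD9 on the same strand, and HOXD3 (0.816 FPKM) were lower. In HOXB the highest member was HOXB7 at 0.672 FPKM, followed by HOXB2 at 0.575 FPKM. In HOXA it was HOXA7 at 0.408 FPKM. Without ZD8 the means were 0.696 FPKM for HOXB7, 0.365 for HOXB2, 0.217 for HOXA7 and 0.0385 for HOXD10. Over all clusters, paralogs 4 to 8 held 77.6% of the HOX FPKM, paralogs 9 to 13 held 17.3% and paralogs 1 to 3 held 5.16%.

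The genes that pattern the female tract all had means under 0.2 FPKM. HOXA9 was at 0.0169, 0.0431 and 0.243 FPKM in the SLS ovaries and at 0.0357, 0.101 and 0.727 FPKM in the LLS ovaries. HOXA10 had 0, 0 and 2 reads in the SLS ovaries and 6, 0 and 109 reads in the LLS ovaries. HOXA11 had 16 reads in ZD8 and none in the other 5, where 3 reads would have been 0.0220 to 0.0259 FPKM. HOXA13 had 1, 0 and 9 reads in the SLS ovaries and 0, 20 and 30 reads in the LLS ovaries. ZD8 was the highest ovary for all 4 genes, and 0 reads at this depth does not show that a gene was silent.

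Most HOX genes were highest in ZD8. It was the highest ovary for 26 of the 36 genes, and for 23 of the 27 genes above 0 in at least 3 ovaries, where the same was found for 53.4% of all such genes in the table. ZD8 was more than 2-fold over the highest other ovary for 16 of these 27 HOX genes (59.3%), beside 24.9% of all such genes. The median ratio of ZD8 to the mean of the other 5 ovaries was 5.72 over the 27 HOX genes and 1.53 over all 20511 genes above 0 in at least 3 ovaries. Summed HOX FPKM was 25.3, 22.9 and 33.9 in the SLS ovaries, 17.9 and 22.7 in ZD5 and ZD7, and 67.4 in ZD8. ZD8 also had the most HOX reads, 7717 against 3685 to 5960, with the fewest reads on genes.

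The members differed in how far ZD8 stood above the rest. HOXD11 had 54 reads in ZD8, 2 in ZD12 and none elsewhere, and HOXD10 reached 0.546 FPKM in ZD8 and lay between 0.0207 and 0.0832 FPKM in the others. HOXA4 was at 0.471 FPKM in ZD8 and at 0.0891 FPKM or less elsewhere. Of the genes at low paralog numbers, HOXD1 reached 0.460 FPKM in ZD8, with 0.0181 to 0.0416 FPKM elsewhere, and HOXB2 reached 1.63 FPKM, with 0.167 to 0.736 FPKM elsewhere. The excess in ZD8 was thus found at both ends of the clusters. Exceptions included HOXB7, highest in ZD12, and HOXC10 and HOXC11, highest in ZD7. HOXB7 was at 0.596, 0.371 and 1.59 FPKM in the SLS ovaries and at 0.272, 0.654 and 0.551 FPKM in the LLS ovaries. Among the 5 ovaries other than ZD8, ZD12 was the highest for 14 of the 27 HOX genes above 0 in at least 3 ovaries (51.9%), beside 41.8% of all such genes. Of these 5, ZD12 also had the highest sums of theca markers (85.7 FPKM) and oocyte markers (23.3 FPKM), and their part in the HOX levels was not tested.

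**Figure D4:**
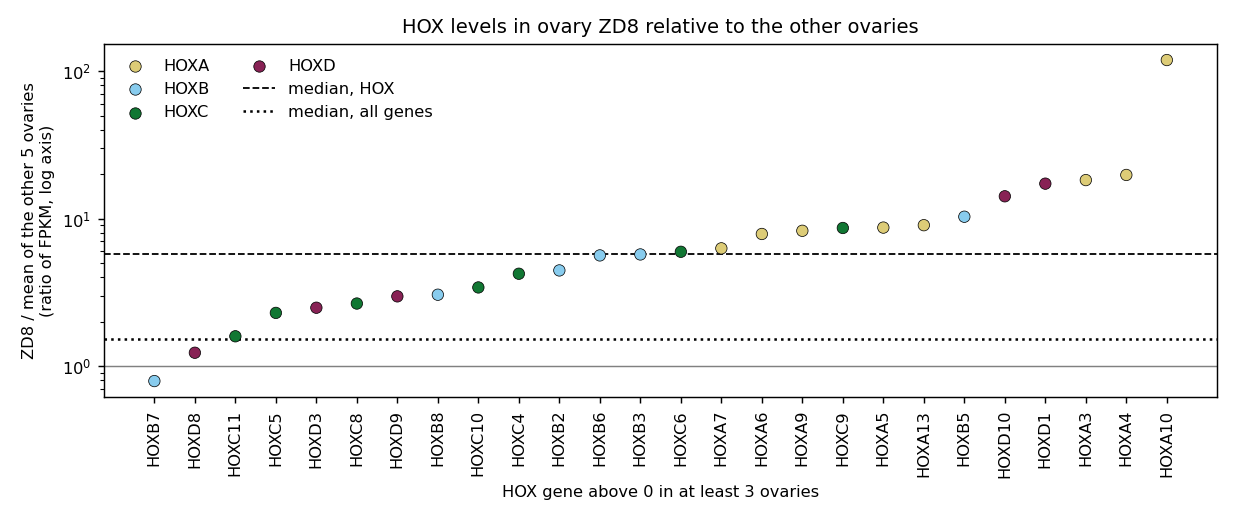
Ratio of the FPKM in ZD8 to the mean of the other 5 ovaries (log axis) for the HOX genes above 0 in at least 3 ovaries, coloured by cluster and ordered by ratio, with 26 of the 27 genes drawn. The dashed line is the median of the 27 HOX genes (5.72), the dotted line that of all genes (1.53), and the ratio at the far right, HOXA10, rests on 0 to 6 reads in each of the other ovaries.

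The comparison of LLS with SLS asks whether the level of a HOX gene differs with the litter size of the sow. With limma on log2(FPKM + 1) over all 12260 genes with at least 1 FPKM in at least 3 ovaries, 0 genes (0%) were called at an adjusted p under 0.05 and a log2 fold change over 1 in size. At an unadjusted p under 0.05 there were 216 genes (1.76%). Only 5 HOX genes passed the filter on low values and were tested, while 31 were not. None of the 5 was called by limma, by edgeR or by DESeq2, and none had an unadjusted p under 0.05 with any of them. The p-values measure the spread between these sows only.

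HOXD8 averaged 10.3 ± 1.61 FPKM in SLS and 9.59 ± 1.91 FPKM in LLS (SD, n = 3 each), and its log2 fold change was -0.10 with a standard error of 0.27 (limma, adjusted p = 0.999). The log2 fold changes of the other 4 were 0.49 (SE 0.65) for HOXC6, 0.20 (SE 0.44) for HOXC8, 0.03 (SE 0.37) for HOXC5 and -0.01 (SE 0.53) for HOXD9. On the log2(FPKM + 1) scale each was smaller than its standard error. On the recovered reads the log2 fold change of HOXC6 was 1.01 (SE 0.74) in DESeq2 and 1.03 in edgeR, with an adjusted p over 0.999 in both. Without ZD8 all 5 were negative in the same fit, at -0.24 for HOXD8, -0.30 for HOXC6, -0.28 for HOXC8, -0.30 for HOXC5 and -0.59 for HOXD9, with limma adjusted p = 0.9996 for each. The positive sign for HOXC6 and HOXC8 was thus lost without ZD8, and that for HOXC5 was lost without ZD2, ZD3 or ZD8, each left out in turn. Summed HOX FPKM averaged 27.4 ± 5.76 in SLS and 36.0 ± 27.3 in LLS (SD, n = 3 each), and the LLS mean was 20.3 without ZD8.

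No HOX gene had groups that did not overlap, while this was so for 2.72% of all genes above 0 in at least 3 ovaries with LLS higher and for 2.76% with LLS lower. Of the 27 HOX genes above 0 in at least 3 ovaries, 24 had a higher mean in LLS and 3 a lower one. All genes of that kind had a higher mean in LLS in 64.3%. Without ZD8, 8 of the 27 had a higher mean in LLS and 19 a lower one, and the share over all genes was 33.3%. HOXA3, HOXA5, HOXA6, HOXB5, HOXB6 and HOXD8 were then lower in both remaining LLS ovaries than in every SLS ovary, beside 11.8% of all genes. For HOXD8 this was close to a tie, at 8.582 FPKM in ZD7 and 8.584 FPKM in ZD12. None was higher in both, beside 7.22% of all genes. HOXA5, an example, was at 0.154, 0.134 and 0.112 FPKM in the SLS ovaries and at 0.00860 and 0.0407 FPKM in ZD5 and ZD7, but at 0.782 FPKM in ZD8. It rested on 12 to 19 reads in the SLS ovaries and on 1 and 5 reads in ZD5 and ZD7. Others rested on fewer, as HOXB5 had 2 reads in ZD12 and 2 in ZD5, and HOXA3 had 2 reads in ZD3 and 1 in each of ZD5 and ZD7. Median log2 fold changes without ZD8 were -1.273 for smooth muscle markers, -1.2 for surface epithelium and mesothelium, -0.897 for theca and -0.44 for stroma. Those above 0 were tubal and uterine epithelium (1.395), granulosa (0.315), luteal (0.185), endothelium (0.026) and oocyte (0.016). Over all tested genes it was -0.099. The part of these cell types in the HOX levels was not tested.

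HOXC10 and HOXC11, neighbours towards the tail end of the HOXC cluster, were present in some ovaries of both groups and at 0 in others. HOXC10 had 0, 0 and 40 reads in the SLS ovaries and 0, 128 and 63 reads in the LLS ovaries. In FPKM it was at 0.375 in ZD12, 1.04 in ZD7 and 0.969 in ZD8, where 3 reads in a library would have been 0.0244 to 0.0461. HOXC11 had 0, 0 and 4 reads in the SLS ovaries and 0, 25 and 5 reads in the LLS ovaries. The same 3 ovaries were at 0 for both genes, a pattern that 175 genes of the table showed. HOXC9, the next gene, was above 0 in all, at 0.194, 0.0241 and 0.989 FPKM in the SLS ovaries and at 0.0216, 0.368 and 2.76 FPKM in the LLS ovaries.

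The window around the annotated start of HOXD8, the steadiest and most abundant member, is shown as an example of the sequence at a HOX start. It runs from 250 bases before the start of the longest RefSeq transcript to 50 bases after it on Sscrofa11.1, plus strand, at chr15:81930745-81931044. Searched on either strand were the TATA box TATAAA, the box written CCAAT, the homeodomain core TAATTA and TGATTNAT (a motif bound by PBX with HOX proteins), and capitals would mark a match.
HOXD8: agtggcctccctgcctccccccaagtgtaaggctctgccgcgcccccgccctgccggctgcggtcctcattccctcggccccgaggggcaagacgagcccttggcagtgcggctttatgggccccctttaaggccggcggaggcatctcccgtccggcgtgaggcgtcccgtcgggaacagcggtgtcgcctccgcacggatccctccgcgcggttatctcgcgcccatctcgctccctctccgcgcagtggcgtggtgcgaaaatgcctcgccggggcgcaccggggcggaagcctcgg

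The HOXD8 window held none of the motifs. CCAAT was found in 34.8% of 19975 annotated windows and in 15 of the 36 HOX windows (41.7%). TAATTA was found in 4.5% of all windows and in 1 HOX window, TATAAA in 11.8% and 4, and TGATTNAT in 2.6% and 1. The HOXD8 window held 37 CG dinucleotides, more than 88.9% of all windows. The median was 16 over the HOX windows and 14 over all windows. Matches are a description of the letters and not sites of binding.

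The miRNAs of the clusters were measured in RPM, reads scaled to the total of the small RNA library. miR-196a, whose reads could come from the HOXC or the HOXB copy, was at 0.342, 3.96 and 124 RPM in ZD2, ZD3 and ZD12, and at 3.08, 174 and 134 RPM in ZD5, ZD7 and ZD8. The 3 ovaries above 100 RPM were those with HOXC10 reads. miR-196b-5p, from between HOXA10 and HOXA9, was at 1.37, 2.54 and 74.1 RPM in the SLS ovaries and at 3.08, 9.74 and 307 RPM in the LLS ovaries. ZD8 and ZD12 were the highest ovaries for miR-196b-5p and for HOXA9. Unlike miR-196a, miR-196b-5p was under 10 RPM in ZD7. Outside ZD8 it did not follow HOXA10, which had 6 reads in ZD5 at 3.08 RPM of the miRNA and 2 reads in ZD12 at 74.1 RPM.

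**Figure D5:**
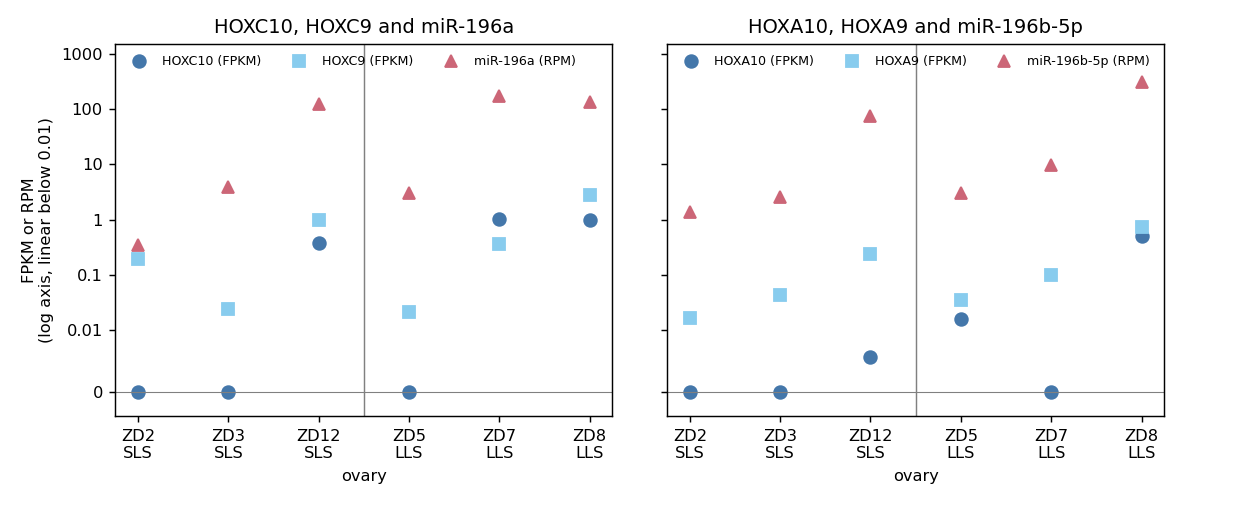
Left, HOXC10 and HOXC9 (FPKM) and miR-196a (RPM) in each ovary; right, HOXA10 and HOXA9 (FPKM) and miR-196b-5p (RPM), on a log axis that is linear below 0.01. miR-196a is above 100 RPM in ZD12, ZD7 and ZD8, the ovaries in which HOXC10 is above 0, and miR-196b-5p is highest in ZD8 at 307 RPM.

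The other cluster miRNAs varied less. miR-10b, between HOXD8 and HOXD3, was at 181, 237 and 349 RPM in the SLS ovaries and at 289, 227 and 410 RPM in the LLS ovaries. miR-10a-5p, from the HOXB cluster, was at 1.54 to 9.55 RPM, with ZD8 highest and ZD12 next. miR-615, which lies inside HOXC5, was at 98.9, 62.2 and 53.6 RPM in the SLS ovaries and at 86.0, 141 and 21.9 RPM in the LLS ovaries. It was lowest in ZD8 and highest in ZD7, the reverse of HOXC5. With limma over 353 miRNAs, 0 (0%) were called between LLS and SLS, and none had an unadjusted p under 0.05. The log2 fold changes were 2.29 (SE 1.85) for miR-196a, 1.47 (SE 1.75) for miR-196b-5p, 0.28 (SE 0.42) for miR-10b and -0.10 (SE 0.69) for miR-615, with limma adjusted p = 0.997 for each. Without ZD8 that of miR-196b-5p was -0.37 (SE 1.32).

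The seed of miR-196 pairs with ACTACCT, and this was searched on the sense strand of the annotated 3′ UTRs. It was found in 6 of 35 HOX transcripts (17.1%), those of HOXA5, HOXA9, HOXB6, HOXB7, HOXC8 and HOXD1, and in 5.4% of 17994 transcripts, with median UTR lengths of 871 and 900 nt. HOXC8 held 3 matches, the most of any HOX gene, and these are shown as the only ones in a member with a mean of at least 1 FPKM, with the match in capitals.
HOXC8, chr5:19224512-19224534: acactcacaactctaACTACCTg
HOXC8, chr5:19225325-19225347: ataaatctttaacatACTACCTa
HOXC8, chr5:19225460-19225482: ccaacgtattttatcACTACCTa

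HOXC8 was at 6.39, 4.59 and 11.7 FPKM in the 3 ovaries with over 100 RPM of miR-196a and at 4.38, 3.73 and 2.99 FPKM in the other 3. An effect of miR-196a on HOXC8 was not tested. The match to the miR-10 seed, ACAGGGT, was found in 3 HOX transcripts (HOXA3, HOXB3 and HOXD1, 8.6%) and in 8.7% of all. That to the miR-615 seed, GGCTCGG, was found in HOXA3 alone (2.9%) and in 6.8% of all.

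HOX proteins bind DNA together with TALE homeodomain cofactors of the PBX, MEIS and PKNOX families. All 10 cofactor genes on the list were tested, 0 were called between the groups, 8 had a log2 fold change above 0 (median 0.26), and ZD8 was the highest ovary for 9 of the 10. Over all tested genes, 52.6% were above 0 (median 0.02). Without ZD8, 3 of the 10 cofactors were above 0 (median -0.25), beside 34.0% of all tested genes (median -0.10). PBXIP1, which binds PBX proteins, was at 28.6, 22.6 and 32.0 FPKM in the SLS ovaries and at 26.0, 29.1 and 46.1 FPKM in the LLS ovaries. Its group ranges overlapped.

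Polycomb proteins keep HOX clusters silent and Trithorax proteins keep them active. Of 19 Polycomb genes, 0 were called, 12 had a log2 fold change above 0 (median 0.07), and ZD8 was highest for 12. Without ZD8, 3 of the 19 were above 0 (median -0.24). PHC1, a Polycomb subunit, was the only one whose groups did not overlap, at 7.11, 5.73 and 7.46 FPKM in SLS and 12.3, 8.88 and 12.5 FPKM in LLS. Groups did not overlap with LLS higher in 2.72% of all genes above 0 in at least 3 ovaries. The log2 fold change of PHC1 was 0.65 (SE 0.27, limma adjusted p = 0.999). Of 16 Trithorax and other activator genes, 0 were called, 13 had a log2 fold change above 0 (median 0.21), and ZD8 was highest for 13. Without ZD8, 2 of the 16 were above 0 (median -0.12). Beside both lists, 52.6% of all tested genes were above 0, and 34.0% (median -0.10) without ZD8. The 2 most abundant were AFF4 at 20.3 to 34.1 FPKM and AFF1, a part of the elongation machinery, at 15.2 to 23.7 FPKM outside ZD8 and 49.8 FPKM in it.

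Retinoic acid switches on HOX genes from the low-number end of a cluster. Of its 18 pathway genes 16 were listed and 12 tested, 0 were called, 6 had a log2 fold change above 0 (median 0.03), and ZD8 was highest for 13 of the 16. Without ZD8, 2 of the 12 were above 0 (median -0.35). ALDH1A1, an enzyme that makes retinoic acid, had groups that did not overlap, at 1.70, 0.875 and 3.01 FPKM in SLS and 7.88, 3.23 and 8.21 FPKM in LLS. Its log2 fold change was 1.36 (SE 0.42, limma adjusted p = 0.999). Of the other 2 enzymes of that step, ALDH1A2 had a log2 fold change of -0.35 (SE 0.27) and a mean of 39.25 FPKM in SLS and 30.15 FPKM in LLS (30.22 FPKM without ZD8). ALDH1A3 had one of -0.51 (SE 0.67), with means of 8.31 FPKM in SLS and 6.74 FPKM in LLS. That sign rested on ZD8, where ALDH1A3 was at 0.985 FPKM, and without ZD8 the LLS mean was 9.62 FPKM. Of 14 listed genes that pattern the Mullerian duct, from which oviduct and uterus form, 7 were tested, 0 were called and 5 had a log2 fold change above 0 (median 0.08), or 2 without ZD8 (median -0.10). WNT5A, a secreted Wnt signal, was at 6.13, 3.57 and 6.41 FPKM in SLS and at 17.9, 11.3 and 18.4 FPKM in LLS, and these did not overlap. Its log2 fold change was 1.41 (SE 0.32, limma adjusted p = 0.999). Beside WNT5A and ALDH1A1, groups did not overlap with LLS higher in 2.72% of all genes above 0 in at least 3 ovaries.

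Genes beside the HOX clusters, which are not HOX genes, were also read in ZD8. Several were far more abundant than any HOX gene, so the set is not matched to the HOX genes in level. Of 19 listed, 15 were tested and 0 called, 7 had a log2 fold change above 0 (median -0.02), and ZD8 was the highest ovary for 7 and the lowest for 5. Over all genes above 0 in at least 3 ovaries, ZD8 was the highest for 53.4%. Without ZD8, 3 of the 15 were above 0 (median -0.08). HNRNPA1, near HOXC, was at 77.9 to 130 FPKM outside ZD8 and 193 FPKM in it, and COPZ1 at 88.1 to 132 FPKM outside it and 56.3 FPKM in it. EVX1 and EVX2, homeobox genes at the tail ends of HOXA and HOXD, were at 0 in all 6 ovaries. Of the ParaHox and CDX genes, relatives of HOX outside the clusters, none passed the filter; GSX2 reached 0.723 FPKM and CDX2 0.629 FPKM, both in ZD8.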

How the data were processed

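Total RNA without ribosomal RNA and small RNA of 6 ovaries were sequenced, 1 library of each kind per ovary, and the groups follow the submitters' labels. The authors trimmed the reads with NGSQCToolkit 2.3.3, used HISAT2 to align the total RNA reads to Sscrofa 11.1, and gave the level of each gene as FPKM in the deposited table. The authors deposited the miRNA values as reads scaled to the library total (RPM). The authors removed the second cDNA strand of the total RNA libraries before amplification, so the libraries carried the strand. The program that counted the reads, and whether it used the strand, were not given in the sources used here. Reads of a gene and of an antisense partner may therefore be mixed. The members and the lists were chosen with earlier results of these data known.

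With the transcript lengths, the deposited FPKM could be turned back into whole reads for 23477 of 23564 genes above 0 (99.6%, tolerance 0.001 read), as could every deposited RPM value. Depth was 32272803 to 60903268 reads for genes and 3537619 to 9854086 for miRNAs, and 3 reads on HOXC10, of 2015 nt, were 0.0244 to 0.0461 FPKM. This covers counting error only.

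The main test was limma 3.58.1 (R 4.3.3) on log2(value + 1), its variance following the mean level; a feature needed 1 FPKM or RPM or more in 3 libraries. Fold changes on that scale understate the change of low genes. The thresholds of the study's methods were kept, 0.05 for p adjusted by Benjamini-Hochberg and 1 for the size of the log2 fold change. Scripts were tested on simulated data. Every HOX gene was to be named, those with a mean of at least 1 FPKM with all 6 values; of each list, the members whose groups do not overlap or else the 2 most abundant. Alternatives were a pseudocount of 0.1, genes above 0 in at least 3 libraries, rescaling to TPM, quantile normalization, array weights, edgeR 4.0.16 and DESeq2 1.42.0 on the recovered reads, and leaving out each ovary. The circRNA data were not used here, and some genes and sequences covered by this rule are not reported here.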

Additional observations from a re-analysis of the deposited data

How the results depend on the processing

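No HOX gene and no miRNA was called under any setting that was run, also with 27 HOX genes tested (above 0 in at least 3 libraries), with 9 after rescaling to TPM and with 20 in edgeR with its filterByExpr filter, which was chosen after seeing the data. Over all genes, limma called 0, array weights gave 13 calls, DESeq2 gave 20, and leaving out 1 ovary gave 0 to 20, where 20 was without ZD8. The cause was not tested. The median log2 fold change of the tested HOX genes was 0.03, and leaving out 1 ovary moved it from -0.30 (without ZD8) to 0.50 (without ZD5).

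Signs of single members turned as follows. HOXC5 was at -0.032 with a pseudocount of 0.1, -0.027 with quantile normalization and -0.33 with array weights. HOXC6 and HOXC8 were at -0.42 and -0.35 with array weights. HOXD9 was at 0.21 in edgeR, 0.19 in DESeq2 and 0.084 with filterByExpr. With array weights, miR-10a-3p was at -0.33, miR-10a-5p at -0.38 and miR-615 at 0.48. Leaving out 1 ovary gave -0.30 to 0.33 for HOXC5, -0.30 to 0.90 for HOXC6, -0.28 to 0.56 for HOXC8 and -0.59 to 0.50 for HOXD9. It gave -0.77 to 0.68 for miR-10a-3p, -0.44 to 0.56 for miR-10a-5p, -0.65 to 0.66 for miR-615 and -0.37 to 3.04 for miR-196b-5p. HOXD8 stayed negative, at -0.24 to -0.00464, and miR-196a positive, at 0.88 to 4.15. No paired analysis was possible because the groups were different sows, and no pairs of sows are given.

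With 3 sows a group and 1 ovary apart from the rest, small differences could not be detected. Of the 31 HOX genes under the filter, 22 were tested with limma in the setting with genes above 0 in at least 3 libraries.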

Other observations

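Other annotated genes lie inside the clusters, and they were looked at after the HOX values were seen. LOC110257186, on the strand opposite to HOXD8 and just past its end (chr15:81935837-81941383), was at 0.840, 0.905 and 0.782 FPKM in the SLS ovaries and at 0.916, 0.717 and 0.881 FPKM in the LLS ovaries. Its highest value was 1.28 times its lowest, so it was as even as HOXD8 and did not stand out in ZD8. LOC106510294, an antisense transcript that overlaps exons of HOXC8 and HOXC9 (chr5:19215809-19222360), was at 0.149, 0.325 and 0.720 FPKM in the SLS ovaries and at 0.194, 0.183 and 1.53 FPKM in the LLS ovaries. It was highest in ZD8 and next in ZD12, the order of HOXC6, HOXC8 and HOXC9. LOC102167757, opposite to the genes between HOXC10 and HOXC9 (chr5:19206540-19209049), had 11, 8 and 33 reads in the SLS ovaries and 0, 28 and 57 reads in the LLS ovaries.

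The antisense transcripts of the HOXA cluster were near the limit of detection. LOC110257591 had 10 reads in ZD8 and 1 in ZD12, and LOC106506838 had 8 reads in ZD8 and 1 in ZD12, with 0 in the other 4 ovaries for both. LOC102159438 had 4 reads in ZD12 and 2 in ZD8, and LOC110257592 had 2 reads in ZD5 alone. LOC102160006, LOC106506841 and LOC110257526, on the same antisense strand, were at 0 in every ovary.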
